A study of Oryza longistaminata with 15 samples.

Results

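Tissue labelled shoot tip was compared with tissue labelled shoot internodes in *Oryza longistaminata*, a wild rice with long and strong rhizomes. The rice was wild type in genotype and was sampled while it was tillering actively. The comparison took the 3 arrays labelled shoot tip (ST, the distal 5 mm of a tiller with all leaves taken off) and the 3 labelled shoot internodes (SI), 6 of the 15 arrays of the series. The other 9 arrays held the rhizome tip (RT, the distal 1 cm of a young rhizome), the rhizome internodes (RI) and the young leaf (YL), 3 of each, and were used to estimate the spread and to show where a shoot difference was or was not found elsewhere. The plants were grown in a greenhouse, no treatment was given, and 5 µg of total RNA went into each labelling reaction. The sample records describe independent replicates from individual plants, whereas the study's methods describe material kept as a single plant, so that the p-values here measure the spread between these samples and may not measure the spread between plants.

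The arrays are named by their deposited labels throughout. The tables of the study name both tip groups the other way round: every tip ratio in its table of tip genes had the direction opposite to that of the arrays as labelled. Which arrays were shoot tips was not settled by the files, so counts of calls are also given with the arrays labelled RT in the place of ST, and the named calls lost by that exchange are listed. The SI labels are not touched by this exchange.

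A grass shoot tip holds the apical meristem and the leaf primordia it has just formed. KNOX homeobox proteins such as OSH1 keep meristem cells undetermined, YABBY proteins act in the lateral organs, and CEN-like (TERMINAL FLOWER 1-like) proteins delay the change to flowering in rice. Internodes are stem segments whose cells leave division, elongate and differentiate, and their outer tissues can be green and store starch.

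Each probe set on the GeneChip Rice Genome Array reports a signal intensity, here on a linear scale. Detection was judged by a cutoff of 49.6, below which 95% of the signals of reporter controls without a rice target fell, and expression in a tissue required a signal above it on all 3 arrays. The 21303 rice probe sets expressed in at least 1 of the 5 tissues were tested with limma on the log2 scale, and calls required both an adjusted p under 0.05 and a change of over 2-fold. Differences are log2 of ST over SI with their standard error (SE), which pools the spread of all 5 tissues, and "adjusted p" is limma's after Benjamini-Hochberg adjustment over all tested probe sets. Where no array of a tissue reached the cutoff, the fold is given as "at least" and divides the geometric mean of the brighter tissue by the cutoff. Precision is limited by the number of arrays, and with 3 arrays in each tissue the smallest two-sided p of an exact permutation test is 0.1. In such tissue samples, fewer cells of a type and less RNA per cell cannot be told apart.

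SI replicate 1 stood apart from the other SI arrays. It correlated with SI replicates 2 and 3 at r = 0.758 and 0.769 across tested probe sets, which are not independent replicates, whereas those replicates correlated with each other at 0.965. With the YL arrays SI replicate 1 correlated at 0.786 to 0.812, and the other SI replicates at 0.509 to 0.587. Its closest arrays were RI replicates 1 and 3, at 0.870 and 0.819. RI replicate 2 in turn correlated with SI replicates 2 and 3 at 0.909 and 0.916, above its 0.822 with RI replicate 1 but below its 0.934 with RI replicate 3. Whether internode arrays were mixed up was not tested, and every SI value and every contrast with the rhizome rests on their labels as deposited. In SI replicate 1, 1472 probe sets were more than 4-fold below both other SI arrays and 443 were more than 4-fold above both. The corresponding numbers were 22 and 47 for SI replicate 2, and 30 and 84 for SI replicate 3. The ST arrays were closer to each other (r = 0.912 to 0.959), and the median SD of log2 signals over replicates was 0.21 in ST and 0.41 in SI. Results that rested on SI replicate 1 are therefore given with and without it.

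The tissue markers did not settle the labels. OSH1, the YABBY and CEN-like probe sets and 1 of 2 MCM3 probe sets were higher in ST than in SI, and granule-bound starch synthase was lower, as given below. OSH1, both CEN-like genes and 2 of the YABBY genes were selected by the study on these arrays for a tip signal above the other tissues, so that their direction is no independent check of the labels. The summed signal of 60 probe sets of the light reactions of photosynthesis was 4338 to 4892 in ST, 84496 to 126692 in SI, 20294 to 23334 in RT, 10238 to 25751 in RI and 184246 to 225168 in YL. Of 731 probe sets above the cutoff on all YL arrays and below it on every ST, RT and RI array, 36 were above it on all 3 SI arrays and 457 were below it on all 3, and the number above it was 233 in SI replicate 1, 79 in SI replicate 2 and 72 in SI replicate 3. Whether leaf or sheath tissue contributed to the SI samples was not tested.

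In total 2435 probe sets were higher (11.4% of those tested) and 2962 lower (13.9%) in ST than in SI. Expressed probe sets numbered 16554 in ST and 15425 in SI, of which 13398 were shared. Among the calls, 908 higher and 1497 lower probe sets were above the cutoff on all 6 arrays. A further 699 of the higher probe sets were below the cutoff on every SI array, and 650 of the lower ones were below it on every ST array. The YL mean exceeded the SI mean for 1593 (53.8%) of the 2962 lower probe sets. Without SI replicate 1 the counts were 2623 higher (12.3%) and 3139 lower (14.7%), and with the arrays labelled RT in the place of ST they were 3284 higher (15.4%) and 2980 lower (14.0%). These comparisons share SI arrays and are given side by side only.

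**Figure D1:**
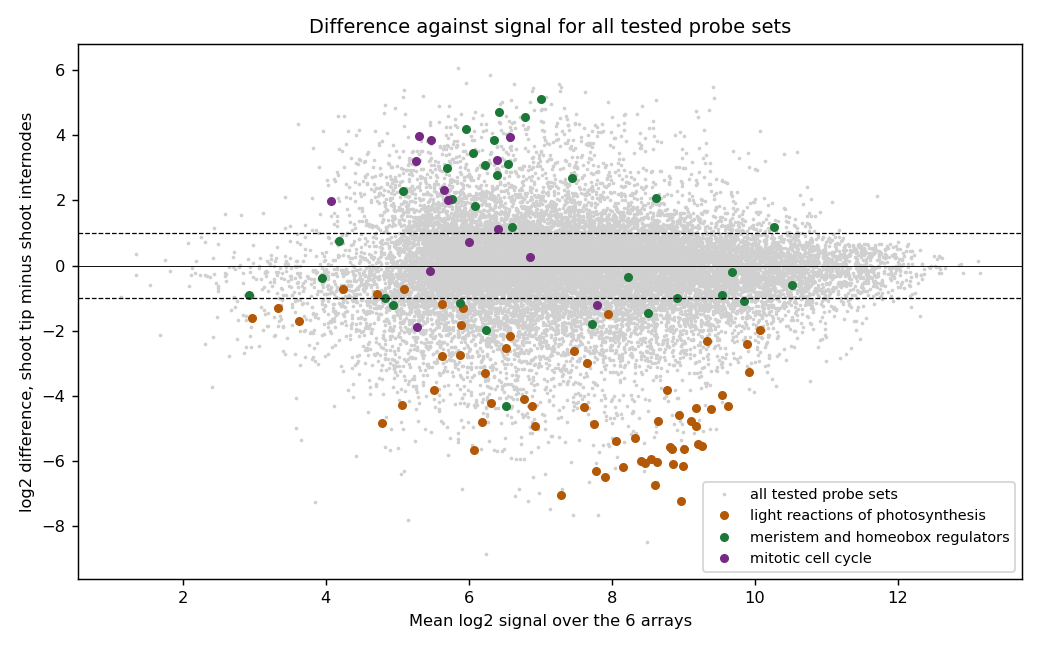
log2 difference of ST minus SI (vertical axis) against the mean log2 signal over the 6 arrays (horizontal axis) for 21303 tested probe sets (grey), with 60 light-reaction, 33 meristem and homeobox and 14 mitotic probe sets in colour; dashed lines mark 2-fold. The light-reaction probe sets all lie below 0, between −0.71 and −7.22, while the meristem and mitotic ones lie on both sides.

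Gene lists were drawn by searching the annotations that the study's tables give to 2662 of the tested probe sets. These tables hold many probe sets that the study selected for tissue enrichment on these same arrays, mostly in YL, so that direction within a list is not independent evidence. Of the annotated probe sets 11.8% were higher and 29.6% lower in ST, and the counts below are to be read against these shares as well as against those of all tested probe sets. The median log2 difference was −0.04 over all tested and −0.53 over the annotated probe sets.

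**Figure D2:**
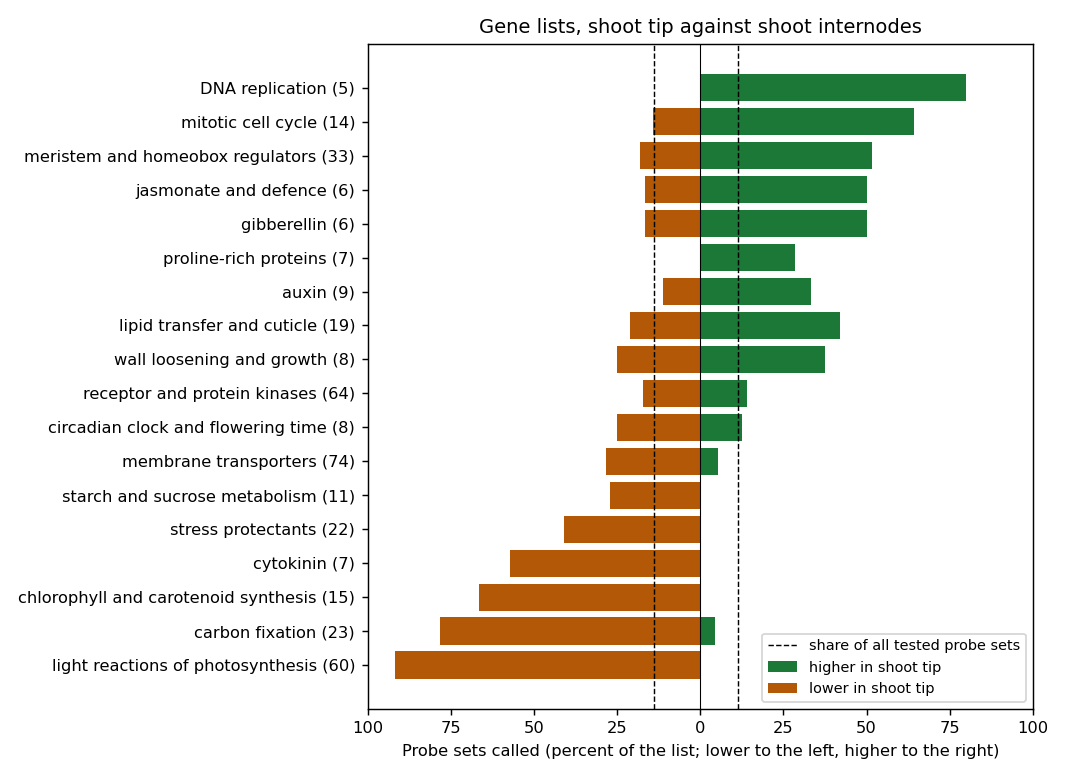
Share of each gene list (members tested in parentheses, lists with 5 or more, without the groups looked up after the values had been seen) called higher in ST (to the right) or lower in ST (to the left), in percent; dashed lines mark the shares among all tested probe sets, 11.4% and 13.9%. Of the lists plotted, the light reactions, carbon fixation and pigment synthesis lie furthest to the left, with 55 of 60 light-reaction probe sets lower, and DNA replication furthest to the right, with 4 of 5 higher.

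Regulators of the shoot apex were more often higher than lower in ST. Of 33 probe sets for meristem, homeobox and lateral organ regulators, 17 were higher, 6 were lower and 10 were not called. Their median log2 difference was 1.17 as measured and 0.66 with values under the cutoff set to it. Homeobox protein OSH1 (Os03g51690), the KNOX gene of the rice shoot meristem, had signals of 2029.8, 1749 and 1783 in ST, against 705, 1046 and 748 in SI, a log2 difference of 1.17 ± 0.27 (adjusted p = 0.00603). All ST arrays were above all SI arrays, although OSH1 was well expressed in the internodes too, and its signal in YL was only 8.33 ± 2.98 (SD, n = 3). With the RT-labelled arrays its difference from SI was 0.55 and not called (adjusted p = 0.13). The probe set for yabby14 (Os04g45330), a YABBY transcription factor, gave 725, 715 and 849 in ST, against 16.1, 28.6 and 23.2 in SI, at least 15.3-fold higher in ST (adjusted p = 3.5e-07). A second YABBY gene (Os03g44710) had 210.0, 214 and 236 in ST, against 17.5, 24 and 19.8 in SI, at least 4.43-fold higher. The third (Os07g06620) reached 424, 639 and 564 in ST, against 8.88, 73.4 and 18.4 in SI, where only replicate 2 passed the cutoff (difference 4.55 ± 0.94, adjusted p = 0.00278). YABBY2 (Os07g0160100) had 211, 259.7 and 381 in ST, against 17.8, 73.2 and 25.2 in SI (3.11 ± 0.67, adjusted p = 0.00368), again with only SI replicate 2 above the cutoff. These 4 YABBY probe sets were thus detected on every ST array and on at most 1 of 3 SI arrays.

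CEN-like protein 2 (Os04g33570) measured 437, 458 and 420.1 in ST, against 10.6, 35 and 12.6 in SI, at least 8.84-fold higher in ST (adjusted p = 2.1e-05). It was also low in RT, at 49.4 ± 29.4 (SD, n = 3), so that with the arrays labelled RT in the place of ST its difference from SI was 1.37 (adjusted p = 0.039). Os11g05470, which the study's tables name CEN-like protein 3 in one place and CEN-like protein 2 in another, showed 145, 129 and 167 in ST, against 6.69, 26.5 and 35.1 in SI, which is at least 2.94-fold higher in ST (adjusted p = 0.00607). Its difference with the RT-labelled arrays was 1.16 and not called (adjusted p = 0.21). PINHEAD (Os06g51310), an ARGONAUTE protein known in Arabidopsis to maintain the shoot meristem, had 931, 786 and 731 in ST, against 161, 207 and 210.5 in SI, a difference of 2.08 ± 0.28 (adjusted p = 0.00016). The list also had members that were lower in ST. The homeobox gene knotted-1-like 3 (Os06g43860) gave 99.9, 188 and 78.6 in ST, against 442, 344 and 399.7 in SI (−1.79 ± 0.28, adjusted p = 0.00048), and its YL mean was higher still, at 2291 ± 253 (SD, n = 3). SHOOT1 (Os07g07540) was below the cutoff on every ST array, at 23.1, 18.3 and 20.3, against 556, 325 and 377 in SI, at least 8.23-fold lower in ST. Of the members not called, the brightest were 2 No apical meristem proteins, Os05g35170 with a difference of −0.60 ± 0.23 (adjusted p = 0.059) and Os08g44820 with −0.20 ± 0.16 (adjusted p = 0.38). With the RT-labelled arrays in the place of ST, 12 of the 33 were higher and 6 lower, and without SI replicate 1, 18 and 6.

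**Figure D3:**
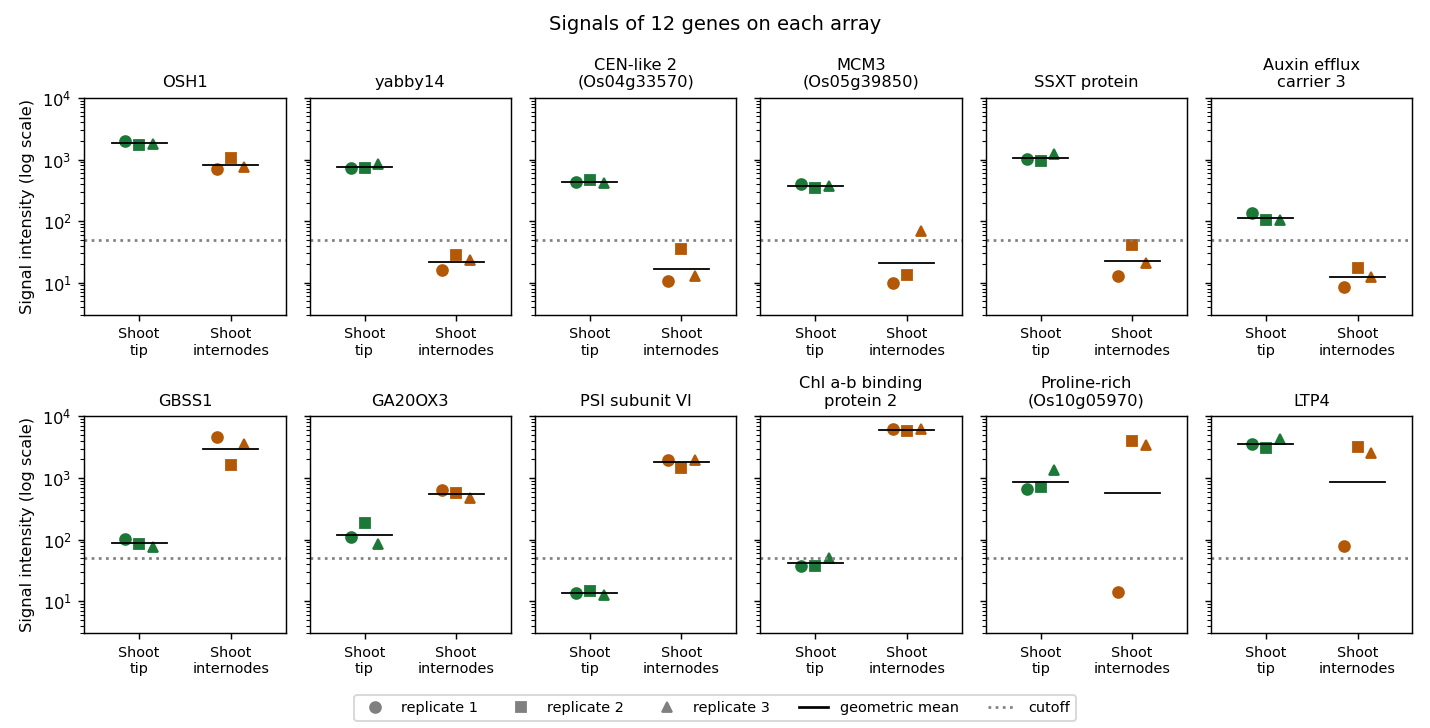
Signal intensity (log scale) of 12 genes on each ST array (left in each panel) and each SI array (right); symbols mark the replicate number, black bars the geometric mean of 3 arrays and the dotted line the cutoff of 49.6. ST and SI do not overlap for the first 10 genes, whereas the proline-rich protein Os10g05970 and the lipid transfer protein LTP4 have 1 low SI array, replicate 1.

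Genes of DNA replication and mitosis were higher in ST, with exceptions. Among the 5 DNA replication probe sets 4 were higher and none was lower (median 1.77), and among the 14 mitotic ones 9 were higher and 2 lower (median 2.01). With values under the cutoff set to it these medians were 1.20 and 0.99, and 6 mitotic probe sets were higher. For 7 of the 14 all SI arrays were below the cutoff. MCM3, a subunit of the helicase that opens replication origins, was read by 2 probe sets with different outcomes. At Os05g39850 the signals were 401, 346 and 369 in ST, against 9.71, 13.1 and 70.2 in SI (4.16 ± 0.60, adjusted p = 0.00024). At Os05g39840 they were 116, 90.4 and 73.4 in ST, against 19.6, 87.9 and 69.5 in SI, where ST replicate 3 lay below SI replicate 2 (0.90 ± 0.43, adjusted p = 0.12, and 0.036 without SI replicate 2). The name of the first probe set ends in "x_at", which marks probes that may read related sequences as well. The same ending is found in other named probe sets, among them those of OSH1, YABBY2 and granule-bound starch synthase 1. Photosynthesis genes named below have it too, in a probe set each of photosystem I subunit N, LHCII type III, the Rubisco small chain and protochlorophyllide reductase B. So does the DnaJ protein of Os03g18200.

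Kinesins, the motor proteins that move along microtubules, led the mitotic list. The kinesin of Os03g02290 had 157, 167 and 150.4 in ST, against 7.05, 7.69 and 18.2 in SI, at least 3.19-fold higher in ST (adjusted p = 3.4e-06). That of Os02g56540 reached 413, 386 and 334 in ST, against 15.2, 14.3 and 66.2 in SI, with only SI replicate 3 above the cutoff. The members lower in ST were another kinesin (Os06g36080), at 19.1, 27.9 and 15.5 in ST, against 134, 52 and 57.5 in SI, and a regulator of chromosome condensation (Os12g18650), with −1.21 ± 0.37 (adjusted p = 0.025, and 0.071 to 0.084 without SI replicate 1, ST replicate 1 or ST replicate 3). The core histones H2A (Os07g36140) and H3 (Os06g04030), which package DNA, were bright and not called, with differences of −0.40 ± 0.27 and 0.32 ± 0.24. Cdt2 (Os03g49200), called higher, had 29.2, 32.6 and 39.3 in ST, against 10.5, 7.01 and 8.17 in SI, all below the cutoff, and its fold is not given for that reason. Without SI replicate 1, 7 mitotic probe sets were higher and 1 lower, and with the RT-labelled arrays 10 were higher and 2 lower.

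Other genes were chosen as the brightest annotated calls detected on every ST array and on no SI array. The brightest annotated one was a protein with an SSXT domain (Os03g52320), a domain of plant GRF-interacting coactivators, at 1026, 935 and 1251 in ST, against 12.8, 41 and 21.1 in SI, at least 21.4-fold higher in ST. An expressed protein without a stated function (Os01g12110) had 721, 1087 and 1227 in ST, against 20, 26.6 and 26.9 in SI, at least 19.9-fold higher. The low SI and bright ST signals of both follow from that choice. A ribonuclease T2 (Os09g36700), an RNA-degrading enzyme, varied within ST, at 422, 1926 and 597, against 8.67, 34.1 and 19.6 in SI. It was called (adjusted p = 0.018), but not without SI replicate 1 (adjusted p = 0.05) or without ST replicate 2 (0.065). An AP2 domain transcription factor (Os06g08340) measured 608, 426 and 965 in ST, against 19.6, 31 and 20.7 in SI, at least 12.7-fold higher.

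Among genes measured above the cutoff in both tissues, the largest annotated difference upwards was that of an expressed protein (Os01g09030), with 886, 513 and 909 in ST, against 72.6, 83.2 and 108 in SI (3.10 ± 0.44, adjusted p = 0.00023). A second AP2 domain protein (Os05g29810) had 3017, 2721 and 2904 in ST, against 62.9, 736 and 1166 in SI, so that SI replicate 1 set much of its difference (2.93 ± 0.81, and 1.64 without that array). Its call (adjusted p = 0.015) was lost in a limma fit of the 6 arrays alone (adjusted p = 0.096). The group also held a second expressed protein (Os12g09580, 2.53 ± 0.21), a GDSL-like lipase (Os02g44860, 2.30 ± 0.37) and a serine carboxypeptidase (Os11g31980, 2.26 ± 0.32). With them were a cystatin (Os04g28250, 2.18 ± 0.42), which belongs to a family of cysteine protease inhibitors, and flowering promoting factor-like 1 (Os01g70730, 2.13 ± 0.31). This group was drawn only from probe sets whose ST arrays all lay above all SI arrays, so that this separation was set by the choice. The group was completed by a non-protein coding transcript (Os06g0649600, 2.76 ± 0.48), PINHEAD, and a pumilio-type RNA-binding protein (Os04g12480, 1.95 ± 0.36), whose ST signals of 397, 403 and 401 were nearly identical.

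Hormone genes differed in both directions. Of 9 auxin probe sets 3 were higher and 1 was lower in ST. Auxin efflux carrier component 3 (Os12g04000), a PIN-type transporter that moves auxin out of cells, had 136, 104 and 103 in ST, against 8.65, 17 and 12.4 in SI, at least 2.28-fold higher in ST (adjusted p = 2.3e-06). Auxin efflux carrier component 1 (Os06g12610) reached 209.8, 250.2 and 259 in ST, against 83.2, 60.3 and 49.7 in SI (1.92 ± 0.33, adjusted p = 0.00078). The arrays of ST and SI did not overlap for either carrier. An auxin responsive protein (Os02g52990) went the other way, with 142, 112 and 88.2 in ST, against 3259, 1085 and 994 in SI (−3.76 ± 0.55, adjusted p = 0.00027). Auxin response factor 2 (Os12g29520), a bright transcription factor, was not called (0.84 ± 0.33, adjusted p = 0.07), except without SI replicate 1 (1.06, adjusted p = 0.034).

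Among 6 gibberellin probe sets 3 were higher and 1 lower in ST. Gibberellin 2-beta-dioxygenase (Os01g55240), of the enzyme class that inactivates gibberellin, had 405, 918 and 442 in ST, against 18.4, 123 and 97.4 in SI (3.18 ± 0.75, adjusted p = 0.00622). GA20OX3, a gibberellin 20-oxidase of the synthesis pathway, was lower, at 109, 185 and 86 in ST, against 627, 579 and 469.5 in SI (−2.21 ± 0.39, adjusted p = 0.00101). In neither gene did the arrays of ST and SI overlap. A gibberellin regulated protein (Os06g51320) had nearly constant ST signals, 1079.6, 1031 and 1030.2, against 10.1, 50.7 and 459 in SI, and its call (adjusted p = 0.028) was lost when any array but SI replicate 3 was left out (adjusted p from 0.062 to 0.098). With the RT-labelled arrays 1 gibberellin probe set was higher and 1 lower.

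None of the 7 cytokinin probe sets was higher and 4 were lower in ST (median −1.59). A cytokinin-O-glucosyltransferase (Os10g09990), of an enzyme class that conjugates cytokinin, had 15.6, 21.5 and 13.7 in ST, against 264, 48 and 287 in SI (−3.21 ± 0.61, adjusted p = 0.00165). The cytokinin-repressed protein CR9 (Os01g01340) was at 167, 184 and 80.6 in ST, against 4359, 412 and 895 in SI, with SI replicate 1 well above the other SI arrays (−3.12 ± 0.76, and −2.17 without it). The receptor CRE1b (Os03g50860) and the response regulator ARR3 (Os04g57720) were not called, with 0.77 ± 0.30 (adjusted p = 0.069) and 0.50 ± 0.57 (adjusted p = 0.53).

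Genes of the cell surface were split between the tissues and rested most on SI replicate 1. Of the 19 lipid transfer and cuticle probe sets tested, 8 were higher and 4 lower in ST (median 1.16). Without SI replicate 1 the counts were 7 and 5 (median 0.32), and with the RT-labelled arrays 4 and 5 (median −0.78). In 7 of them SI replicate 1 was more than 4-fold below both other SI arrays. A lipid transfer domain protein (Os10g0554800) had 2498, 2322 and 2109.9 in ST, against 32.6, 175 and 53.9 in SI (5.09 ± 0.89, adjusted p = 0.00094). Another (Os01g0914300) had 3701, 3149 and 3524 in ST, against 32.3, 239 and 258 in SI (4.78 ± 0.87, adjusted p = 0.00128). Both were called without SI replicate 1 too, at 4.57 (adjusted p = 0.00373) and 3.80 (adjusted p = 0.00312). Members lower in ST were a GDSL-like lipase (Os01g11620), at 223, 184 and 148 in ST, against 997, 3092 and 2395 in SI, and a seed storage/lipid transfer protein (Os05g06780), at 1205, 732 and 465 in ST, against 5887, 5502 and 5596 in SI. Nonspecific lipid-transfer protein 4 (Os11g02350) was not called: ST gave 3526, 3037 and 4265, against 79.7, 3184 and 2587 in SI, where replicate 1 alone was low. Its difference was 2.04 ± 1.31, and 0.32 without SI replicate 1.

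Proline-rich proteins, structural proteins of the wall, showed the same split among the SI arrays. Of 7 probe sets 2 were higher in ST and none was lower, with a median of 0.80 that turned to −0.77 without SI replicate 1 and to −1.84 with the RT-labelled arrays, and 4 had SI replicate 1 more than 4-fold below both other SI arrays. Os10g05970 measured 665, 723 and 1324 in ST, against 13.9, 3921 and 3393 in SI. Os10g05990 measured 409.5, 455 and 892 in ST, against 10.4, 2272 and 2396 in SI. Both had SI replicate 1 below the cutoff and the other SI arrays above all ST arrays. Their differences were 0.60 ± 2.13 and 0.52 ± 2.13 with SI replicate 1, against −2.08 and −2.09 without it, so that the direction turned, and neither was called in either case. The members called were a hydroxyproline-rich glycoprotein (Os04g10650), at least 1.58-fold higher in ST, and the proline-rich protein of Os10g05750 (2.33 ± 0.57, adjusted p = 0.00788).

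Of 8 probe sets for wall loosening 3 were higher and 2 lower in ST. Endoglucanase 1 (Os01g21070), which cuts glucan chains of the wall, had 208, 223 and 112 in ST, against 12.6, 11.7 and 17.2 in SI, at least 3.49-fold higher. A polygalacturonase (Os05g50960), which cuts pectin, had 275, 264 and 324 in ST, against 11.7, 54 and 207 in SI, and lost its call (adjusted p = 0.025) when any array but SI replicate 3 was left out (adjusted p from 0.053 to 0.071). ST was above all SI arrays in both genes, but by a narrow margin over SI replicate 3 in the second. Xyloglucan endotransglucosylase/hydrolase 28 (Os03g63760), which cuts and rejoins wall xyloglucan, was below the cutoff on every ST array and had 224, 80.8 and 140.1 in SI, at least 2.75-fold lower in ST. Alpha-expansin 10 (Os03g21820), a wall-loosening protein, had 675, 497 and 743 in ST, against 11.3, 358 and 261 in SI, and was not called (adjusted p = 0.064), except without SI replicate 2 or 3 (adjusted p from 0.024 to 0.041). Of the 2 secondary wall probe sets, COBRA-like protein 2 (Os03g30260) was higher in ST, at 97, 100.1 and 45.7, against 13.1, 10.5 and 12.6 in SI.

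Among the gene lists, those of carbon fixation and the light reactions of photosynthesis had the lowest median differences. Of the 60 light-reaction probe sets 55 were lower and none was higher in ST, with a median log2 difference of −4.35 as measured and of −3.79 with values under the cutoff set to it. For 28 of them all ST arrays were below the cutoff, and for 58 all ST arrays lay below all SI arrays (25.5% of all tested probe sets did so). Chlorophyll a-b binding protein 2 (Os01g41710), which holds light-harvesting pigment, had 37.3, 37.5 and 49.6 in ST, against 6344, 5701 and 6324 in SI, at least 123-fold lower in ST (adjusted p = 4.7e-09). Photosystem I subunit VI (Os05g48630) had 13.8, 14.6 and 12.6 in ST, against 1997, 1472 and 1962 in SI, at least 36.2-fold lower (adjusted p = 1.3e-09). Another chlorophyll a-b binding protein (Os03g39610) was above the cutoff in both tissues, at 56, 63.8 and 62.6 in ST, against 4325, 3848 and 4872 in SI, the largest such difference downwards among annotated probe sets (−6.16 ± 0.22, adjusted p = 4.7e-09). In these genes the replicates of a tissue lay close together, and SI replicate 1 was like the other SI arrays.

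Oxygen-evolving enhancer protein 1 (Os01g31690), part of the water-splitting complex, was at least 48.7-fold lower in ST, and photosystem II 10 kDa polypeptide (Os08g10020) at least 80.7-fold lower. Ferredoxin-1 (Os08g01380), which accepts electrons from photosystem I, had 27.7, 31.6 and 33.8 in ST, against 3502, 1563 and 2126 in SI, at least 45.7-fold lower. A 16kDa membrane protein (Os04g33830) showed 11.6, 10.9 and 14.8 in ST, against 2902, 2188 and 2428 in SI, at least 50.2-fold lower. All ST arrays were below the cutoff for these genes, and no SI array was below 1563. LHCII type III (Os07g37550), a light-harvesting antenna protein, was read by 2 probe sets, with −5.58 ± 0.31 and −5.48 ± 0.29. Photosystem I subunits N (Os12g08770) and III (Os03g56670) had −5.53 ± 0.53 and −4.90 ± 0.33. Of the light-reaction probe sets not called, photosystem II reaction center J (Os01g0881600) had −1.30 ± 0.51 (adjusted p = 0.067, and 0.032 without SI replicate 2) and an oxygen evolving enhancer protein 3 (Os07g01480) had −1.18 ± 0.63 (adjusted p = 0.17), each with SI replicate 1 several-fold above the other SI arrays. Without SI replicate 1, 50 of the 60 were lower. With the RT-labelled arrays in the place of ST 52 were lower, with a median difference of −2.39.

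**Figure D4:**
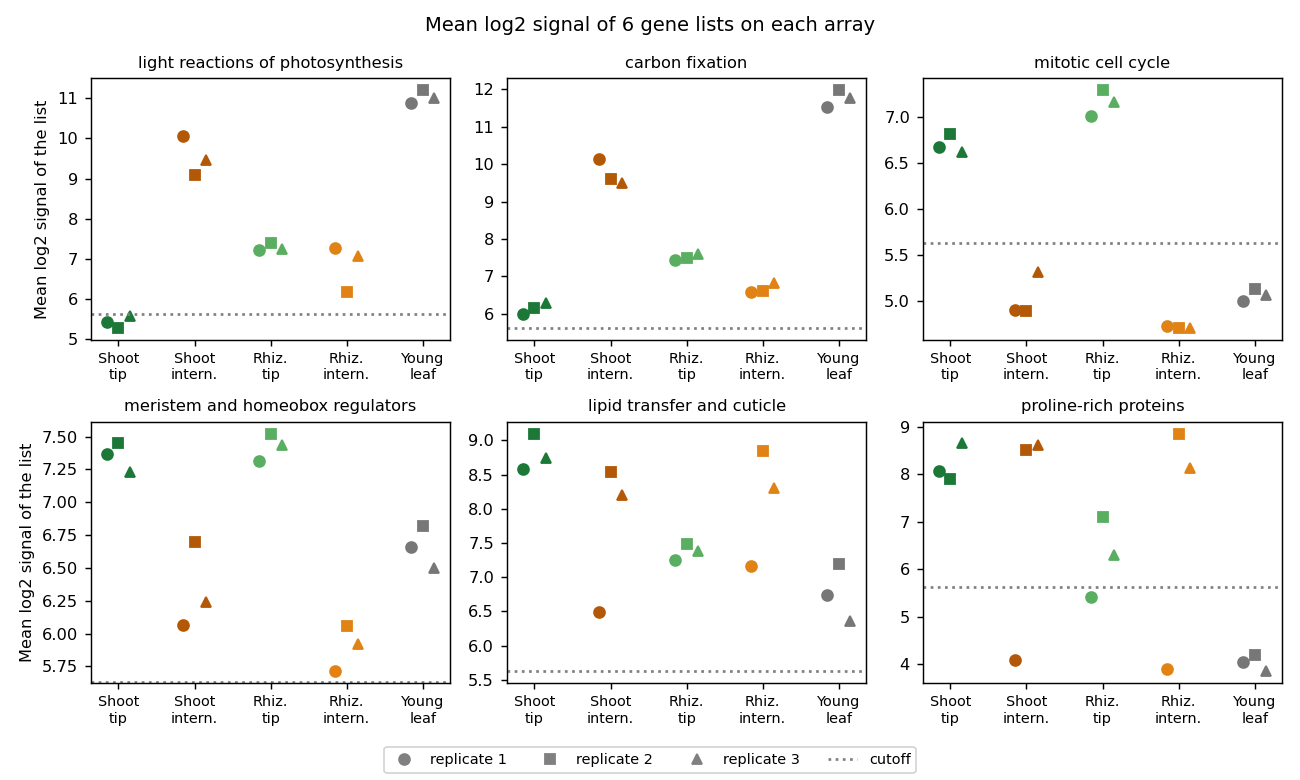
Mean log2 signal of 6 gene lists (vertical axis) on each array, by tissue (horizontal axis: shoot tip, shoot internodes, rhizome tip, rhizome internodes, young leaf); symbols mark the replicate number and the dotted line the cutoff. The light-reaction list lies at 5.28 to 5.58 in ST and at 9.09 to 10.06 in SI, and in the proline-rich list SI replicate 1, at 4.10, lies far below SI replicates 2 and 3, at 8.51 and 8.61.

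Carbon fixation followed the same pattern. Of 23 probe sets 18 were lower and 1 was higher in ST (median −4.59), and the YL mean exceeded the SI mean for all 23. Phosphoribulokinase (Os02g47020), which regenerates the acceptor of carbon dioxide, had 7.58, 8.57 and 9.84 in ST, against 1539, 969 and 1050.0 in SI, at least 23.4-fold lower in ST (adjusted p = 5.6e-09). Glyceraldehyde-3-phosphate dehydrogenase A (Os04g38600), of the same cycle, was at least 22.7-fold lower, and the Rubisco small chain (Os12g0291100), read by 2 probe sets, had −4.97 ± 0.32 and −4.93 ± 0.33. CP12 (Os03g19380), a small protein that regulates phosphoribulokinase and glyceraldehyde-3-phosphate dehydrogenase, had 62.8, 49.9 and 51.3 in ST, against 3322, 1435 and 1481 in SI (−5.14 ± 0.40, adjusted p = 2.8e-06). The 1 member higher in ST is annotated as a phosphoribulokinase/uridine kinase family protein (Os04g21110), a name shared with enzymes outside the chloroplast cycle, at 359.8, 314 and 236 in ST, against 195, 68.1 and 59.9 in SI (adjusted p = 0.045, and 0.068 to 0.14 when any array but SI replicate 1 was left out). The RuBisCO subunit binding protein (Os06g02380), a chaperonin, was not called (−0.11 ± 0.21, adjusted p = 0.72), nor was mitochondrial serine hydroxymethyltransferase (Os12g22030), with 0.25 ± 0.30 (adjusted p = 0.55). With the RT-labelled arrays 16 of the 23 were lower and none was higher.

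Of 15 probe sets for chlorophyll and carotenoid synthesis 10 were lower and none was higher in ST (median −1.37). Protochlorophyllide reductase B (Os10g35370), which makes the precursor of chlorophyll in light, had 97.3, 82.8 and 93.9 in ST, against 1404, 929.8 and 1197 in SI (−3.67 ± 0.32, adjusted p = 5.9e-06). Lycopene epsilon cyclase (Os01g39960), of carotenoid synthesis, was at least 2.70-fold lower. Enzymes that act earlier in the tetrapyrrole pathway differed less: uroporphyrinogen decarboxylase (Os03g22060) had 787, 765 and 842 in ST, against 1394, 1350.0 and 1727 in SI, not past 2-fold (−0.89 ± 0.22, adjusted p = 0.00754), and coproporphyrinogen III oxidase (Os04g52130) was not called (−0.77 ± 0.32, adjusted p = 0.082). With the RT-labelled arrays 6 of the 15 were lower and 1 higher.

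Of 11 probe sets for starch and sucrose metabolism 3 were lower in ST (27.3%) and none was higher. The share lower was 13.9% of all tested and 29.6% of the annotated probe sets. Granule-bound starch synthase 1 (Os06g04200), the enzyme of amylose synthesis, had 103, 83.3 and 77 in ST, against 4559.9, 1656 and 3548 in SI (−5.10 ± 0.31, adjusted p = 3.8e-07). Unlike the photosynthesis genes it was low in YL, at 82 ± 9.25, and high in RI, at 5145 ± 309 (SD, n = 3 each). A second probe set for an unspliced transcript of this locus also was lower (−2.75 ± 0.39, adjusted p = 0.00021). A beta-fructofuranosidase (Os01g22900), which splits sucrose, had overlapping signals (−0.13 ± 0.55, adjusted p = 0.88), and an alkaline/neutral invertase (Os02g32730) was not past 2-fold (−0.80 ± 0.24, adjusted p = 0.022).

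Of 4 MADS-box probe sets 1 was higher and 2 were lower in ST, and without SI replicate 1 none was higher and 2 were lower. APETALA1 (Os03g54160), a floral homeotic MADS protein, was below the cutoff on every ST array, at 21.6, 42.3 and 14.5, against 1363, 576 and 575 in SI, at least 15.5-fold lower in ST, and averaged 1813 ± 415 in YL (SD, n = 3). AGL12 (Os08g02070), named as a root marker, was somewhat higher in ST, at 196, 165 and 145, against 39.9, 105 and 53.7 in SI (1.46 ± 0.47, adjusted p = 0.032, and 0.058 to 0.098 when any array but SI replicate 2 was left out). Another MADS-box gene (Os03g0186600) was lower in ST (−1.52 ± 0.42, adjusted p = 0.016, and 0.058 to 0.061 without ST replicate 1 or 3), and AGL19 (Os10g39130) was called only without SI replicate 2 or 3 (−1.36 ± 0.53, adjusted p = 0.069 with all arrays). A CONSTANS gene (Os04g42020), of a family that acts in the day-length response, had 28.3, 54.7 and 30.5 in ST, against 1478, 294 and 449.9 in SI (−4.0 ± 0.58, adjusted p = 0.00026). Of the 8 clock and flowering probe sets 1 was higher and 2 were lower, and ZEITLUPE (Os06g47890), a clock F-box protein, was not called (−0.41 ± 0.30, adjusted p = 0.32).

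Most transporters, stress protectants and kinases were not called, as was the case for all tested probe sets, of which 25.3% were called in either direction. Of 74 membrane transporter probe sets 4 were higher (5.4%) and 21 lower (28.4%) in ST. A xanthine/uracil permease (Os09g15170) had 163, 115 and 137 in ST, against 13, 17.1 and 20.3 in SI, at least 2.76-fold higher, and a phosphate transporter (Os02g38020) was at least 11.7-fold lower. Aquaporin PIP2.2 (Os07g26630), a water channel, had 20.1, 53.5 and 12.6 in ST, against 173, 516 and 385 in SI (−3.77 ± 0.95, adjusted p = 0.00891). SI was above ST on all arrays of the aquaporin, with replicate 1 the lowest of SI. Among 22 stress protectants 9 were lower (40.9%) and none was higher, led by a DnaJ protein (Os03g18200, −3.50 ± 0.56), a co-chaperone. The 17.5 kDa class II heat shock protein (Os01g08860) was called only without SI replicate 1 (−1.90 ± 0.71, adjusted p = 0.057 with it and 0.023 without). Of 64 kinases 9 were higher and 11 lower, shares of 14.1% and 17.2%, against 11.4% and 13.9% of all tested and 11.8% and 29.6% of the annotated probe sets. A leucine-rich repeat receptor kinase (Os06g04370) had 218, 144 and 265 in ST, against 7.23, 11.1 and 10.9 in SI, which is at least 4.08-fold higher in ST (adjusted p = 2.7e-07). The protein kinase of Os07g43570 was called lower, but was above the cutoff only in SI replicate 1, with 596, 17.5 and 18.9 in SI, and in YL, and its call (adjusted p = 0.03) was lost without any 1 of the ST arrays (0.062 to 0.081).

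Of 6 jasmonate and defence probe sets 3 were higher and 1 lower in ST. A thionin (Os06g32350), a small antimicrobial peptide, had 188, 1186 and 360.5 in ST, against 3.17, 38.5 and 5.85 in SI, at least 8.69-fold higher. A second thionin (Os06g31960) had 3347, 5626 and 3697 in ST, against 28.3, 1054 and 53.5 in SI, with a call (adjusted p = 0.019) that was lost without SI replicate 1, SI replicate 3 or ST replicate 2 (adjusted p from 0.053 to 0.063). Pathogenesis-related protein 1 (Os03g18850) varied over 10-fold within each tissue and was not called (−0.55 ± 1.11, adjusted p = 0.74). In the small low-oxygen and glycolysis list of 4, enolase 1 (Os06g04510) was at least 14.5-fold lower in ST, and pyruvate decarboxylase isozyme 1 (Os01g06660) was not called (−0.44 ± 0.37). The only cytosolic ribosomal probe set, for L10-3 (Os05g07700), was below the cutoff on all 6 arrays.

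Of the 93 called probe sets chosen by the naming rule, 67 were called the same way with the RT-labelled arrays in the place of ST, 2 were called the other way and 24 were not called. The 2 that turned were a probe set of Os04g54230 and lipid-transfer protein 1, described with the rhizome. Calls lost among bright ST genes were those of Os01g12110 (0.63, adjusted p = 0.42), the ribonuclease T2 (1.93, adjusted p = 0.35), the AP2 domain protein of Os05g29810 (1.05, adjusted p = 0.32), the non-protein coding transcript (0.67, adjusted p = 0.28), flowering promoting factor-like 1 (0.46, adjusted p = 0.26) and the cystatin (0.33, adjusted p = 0.56). YABBY2 (1.21, adjusted p = 0.17) and AGL12 (0.44, adjusted p = 0.49) lost theirs as OSH1 and Os11g05470 did. Among hormone and defence genes the gibberellin 2-beta-dioxygenase (0.65, adjusted p = 0.52), the gibberellin regulated protein (2.88, adjusted p = 0.095), CR9 (−1.76, adjusted p = 0.083) and the thionin of Os06g31960 (3.57, adjusted p = 0.075) were not called. At the cell surface the same held for the polygalacturonase (1.78, adjusted p = 0.084), the proline-rich protein of Os10g05750 (1.11, adjusted p = 0.14) and the seed storage/lipid transfer protein (−1.17, adjusted p = 0.22). Other calls lost were those of enolase 1 (−1.18, adjusted p = 0.18), CONSTANS (−1.36, adjusted p = 0.08), aquaporin PIP2.2 (−0.67, adjusted p = 0.6), lycopene epsilon cyclase (−1.10, adjusted p = 0.088), the phosphoribulokinase/uridine kinase family protein (1.02, adjusted p = 0.19), L10-3 and a zinc-finger protein of the CONSTANS type.

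The list counts moved as well under this exchange. DNA replication had 5 probe sets higher and none lower, auxin 4 higher and 3 lower, cytokinin 1 and 4, jasmonate and defence 1 and 1, and wall loosening 2 and 2. Proline-rich proteins had 2 higher and none lower. None of the MADS-box probe sets was higher and 2 were lower, and the clock and flowering list had 1 higher and none lower. Starch and sucrose metabolism had none higher and 2 lower, and the low-oxygen and glycolysis list 2 higher and none lower. Transporters had 6 higher and 16 lower, stress protectants 1 and 6, and kinases 13 and 10.

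The shoot was set beside the rhizome, whose tip and internodes come from other arrays, to see where the tip minus internode difference was not the same in both organs. RT differed from RI at 3943 higher (18.5%) and 2767 lower (13.0%) probe sets. Of the 2435 probe sets higher in ST 2016 were also higher in RT, which is 82.8% of the shoot list and 51.1% of the rhizome list. The lower calls shared 1587 probe sets, 53.6% of the shoot list and 57.4% of the rhizome list. Opposite calls were found at 25 probe sets that were higher in ST and lower in RT, and at 121 that were lower in ST and higher in RT.

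The difference between the organs itself, log2 of ST over SI minus log2 of RT over RI, was called positive at 131 probe sets (0.615%) and negative at 507 (2.38%). Median centring of the arrays changed this split to 179 and 341, and quantile normalization to 169 and 399. Of the light-reaction probe sets 42 were among the negative calls, and 15 of the 23 for carbon fixation. Contrasts are given as measured, also where a tissue was below the cutoff, so that their sizes rest partly on signals below detection. Photosystem I subunit VI had 238 ± 56.5 in RT and 16.5 ± 1.90 in RI (SD, n = 3 each), a rhizome difference of 3.83 beside its fall in ST. The organs thus differed by −10.87 ± 0.30 (adjusted p = 4.9e-10), with both ST and RI below the cutoff. The same contrast was −10.87 ± 0.41 for glyceraldehyde-3-phosphate dehydrogenase A, −10.68 ± 0.31 and −10.26 ± 0.36 for the chlorophyll a-b binding proteins of Os03g39610 and Os01g41710, and −10.24 ± 0.45 for the 16kDa membrane protein. None of the 5 DNA replication or 14 mitotic probe sets was called in it. With 0.615% and 2.38% of all tested probe sets called, lists this small would hold few calls in any case.

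In the 5 largest positive contrasts among annotated probe sets the rhizome difference was larger in size than the shoot difference. The expressed protein of Os04g54230, read by 2 probe sets, averaged 22.8 ± 9.96 in RT and 2010.4 ± 275 in RI on the brighter of them (SD, n = 3 each), with a contrast of 8.30 ± 0.56 (adjusted p = 2e-06), and the other gave 8.95 ± 1.23. Nonspecific lipid-transfer protein 1 (Os12g02320) had 45.3, 165 and 138 in ST, against 13.3, 26.5 and 15.5 in SI, and 7.23, 2.24 and 5.03 in RT, against 272, 239.8 and 237 in RI, a contrast of 8.36 ± 0.70 (adjusted p = 1.3e-05). Every SI and RT signal of this gene was below the cutoff. A wound induced protein (Os04g54300) and a BURP domain protein (Os10g26940) had 7.78 ± 0.64 and 7.70 ± 1.32, and neither was called between ST and SI. CEN-like protein 2 (Os04g33570) was among the positive calls too, at 4.81 ± 0.68 (adjusted p = 0.00126), with a shoot difference of 4.71 and a rhizome difference of −0.10. The shoot difference was also the larger for the expressed proteins of Os01g12110 (5.35, with −0.98 in the rhizome) and Os01g09030 (3.10, with −0.62 in the rhizome), whereas PINHEAD was among the negative ones, at −2.86 ± 0.40. The contrast depended on the naming of the tips: with the tip labels exchanged, 3 probe sets were called positive and 19 negative. It was also larger without SI replicate 1, at 216 and 758.

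**Figure D5:**
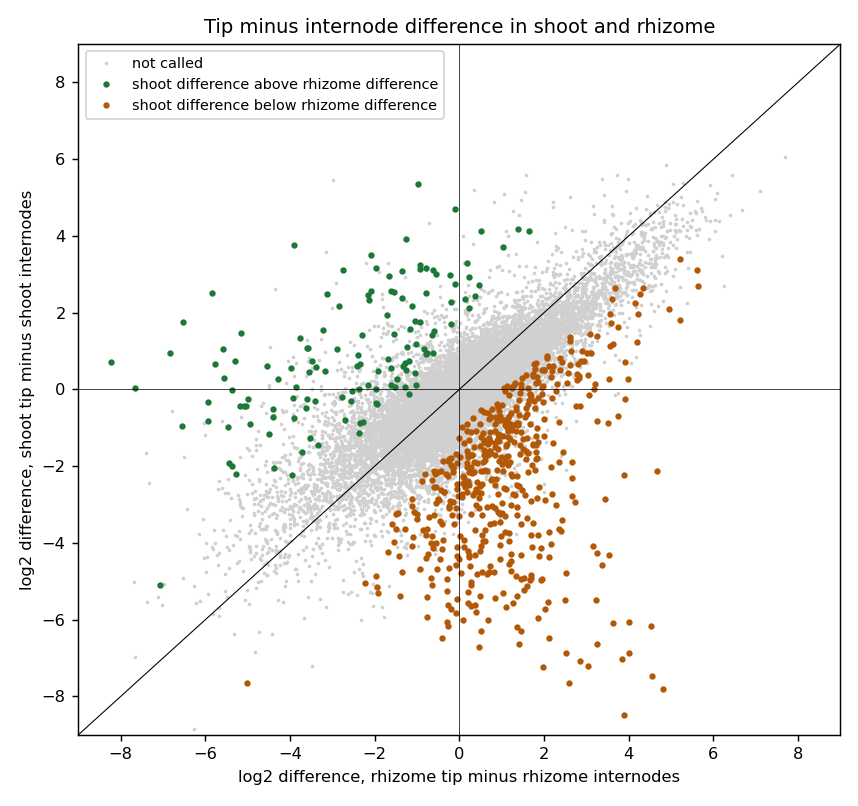
log2 difference of ST minus SI (vertical axis) against that of RT minus RI (horizontal axis) for each tested probe set, with the 131 positive and 507 negative calls of the shoot minus rhizome contrast in colour and the line of equal differences in black. Photosynthesis probe sets such as photosystem I subunit VI lie at the lower right, at −7.04 in the shoot and 3.83 in the rhizome.

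Other annotation groups were looked up after the values had been seen, and are given as counts only. Of 41 ribosomal proteins, most of them named for the chloroplast, 32 were lower and 1 was higher in ST. The higher one was L10-3, which was below the cutoff on all 6 arrays. Of 15 thioredoxin-related proteins 14 were lower and none was higher. Peroxisomal enzymes and catalase had 7 lower and none higher of 10, and cytochrome P450 enzymes 8 lower and 1 higher of 19. Leucine-rich repeat proteins had 9 higher and none lower of 14, and F-box proteins 5 higher and 2 lower of 21 (23.8% and 9.5%). AP2 domain proteins had 2 higher and 2 lower of 13 (15.4% each), and Myb domain proteins 3 higher and 2 lower of 22 (13.6% and 9.1%). The shares of the AP2 and Myb domain proteins were near those of all tested probe sets, 11.4% higher and 13.9% lower.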

How the data were processed

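The deposited values are linear signal intensities, which the authors made from scanned 1-colour GeneChip Rice Genome Arrays with GCOS 1.4 and scaled over all arrays in dChip; no detection calls were used. Array medians were 21.9 to 23.6, and 17943 to 18834 of 57194 rice probe sets per array passed the cutoff (187 control probe sets removed). Signals under 1 were set to 1 before log2. All 15 arrays were fitted with 1 mean per tissue in limma 3.58.1 (lmFit, eBayes; R 4.3.3), with Benjamini-Hochberg adjustment over 21303 probe sets; the study's methods used SAM, which was not run here. The fit was tested on simulated data. Figures were drawn with matplotlib 3.10.9.

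Locus names and annotations of 2663 probe sets came from the study's tables, where a name in one table replaced "unknown" in another, and 22436 probe sets had 1 gene symbol, 95 several. Members and gene lists were chosen with earlier results of these data known. Named genes were drawn, by a rule, from the largest differences and brightest tissue-restricted genes with an annotation, from each list (called members and the brightest uncalled), from the tip markers, and from the largest shoot minus rhizome contrasts; not all are named. The largest differences were taken among calls above the cutoff on all arrays of both tissues and without overlap between the ST and SI arrays. The tissue-restricted genes were above the cutoff on all arrays of a tissue and below it on all arrays of the other. LTP3 is named since it turned direction.

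Alternatives were quantile normalization, median centring, cutoffs at the 90th and 99th percentiles, no filter, values raised to the cutoff, the 6 arrays alone, a replicate block, no fold minimum, a mean-variance trend, exchanged tip labels and each array left out, with the tested probe sets kept.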

Additional observations from a re-analysis of the deposited data

Results flagged for a closer look

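Between the shoot and the rhizome, the tip minus internode difference itself was tested in limma (log2 of ST over SI minus log2 of RT over RI), and 131 probe sets passed in the positive and 507 in the negative direction. With the tip labels exchanged only 3 and 19 passed. The genes named in the report that passed are listed with that contrast on the log2 scale, and whether the naming of the tips or tissue carried along at sampling had a part in it was not tested. Signals below the cutoff enter the contrast as measured, so that its size is uncertain for genes not detected in a tissue.

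Among the photosynthesis genes, which were lower in ST than in SI, the contrast was −10.87 for photosystem I subunit VI, −10.87 for glyceraldehyde-3-phosphate dehydrogenase A, −10.68 and −10.26 for the chlorophyll a-b binding proteins of Os03g39610 and Os01g41710, −10.24 for the 16kDa membrane protein and −9.92 for phosphoribulokinase. It was −8.72 and −6.84 for the probe sets of LHCII type III, −7.62 and −4.23 for photosystem I subunits N and III, −7.56 for ferredoxin-1, −7.18 for the photosystem II 10 kDa polypeptide and −5.90 for oxygen-evolving enhancer protein 1. The Rubisco small chain probe sets gave −6.90 and −6.46, CP12 −3.18, lycopene epsilon cyclase −6.07 and protochlorophyllide reductase B −4.04. Uroporphyrinogen decarboxylase, which was not past 2-fold between ST and SI, gave −1.38.

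Other negative contrasts were those of enolase 1 (−6.21), the phosphate transporter of Os02g38020 (−6.06), SHOOT1 (−5.77), APETALA1 (−5.30), the cytokinin-O-glucosyltransferase (−4.21), CONSTANS (−3.45), the DnaJ protein of Os03g18200 (−3.38), PINHEAD (−2.86) and the serine carboxypeptidase (−1.89).

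Positive contrasts were found for the probe sets of Os04g54230 (8.95 and 8.30), lipid-transfer protein 1 (8.36), the wound induced protein (7.78), the BURP domain protein (7.70), the expressed proteins of Os01g12110 (6.32) and Os01g09030 (3.72), CEN-like protein 2 of Os04g33570 (4.81), the cystatin (3.31), the non-protein coding transcript of Os06g0649600 (2.87), granule-bound starch synthase 1 (1.97) and flowering promoting factor-like 1 (1.90).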

How the results depend on the processing

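The counts of probe sets higher and lower in ST stayed within 1.5 times of 2435 and 2962 under every alternative run, and from 1999 to 2623 and from 2261 to 3139 when 1 array was left out. Quantile normalization moved the median difference of all tested probe sets by 0.12 on the log2 scale, to 0.07, and gave 2950 higher and 2692 lower. A fit of the 6 arrays alone gave 2185 higher and 2504 lower. The 60 light-reaction probe sets had 50 to 56 lower, the 23 of carbon fixation 18 to 19 lower, the 33 meristem ones 16 to 18 higher and the 14 mitotic ones 7 to 8 higher when 1 array was left out. With values under the cutoff set to it, 50 light-reaction and 18 carbon fixation probe sets were lower, and 16 meristem and 6 mitotic ones higher. Deviations of ST and SI arrays of the same replicate number from their tissue means correlated at −0.07, 0.23 and −0.22. Those of different numbers correlated at −0.245 to 0.268. Deviations within a tissue are tied to each other, so this check cannot decide whether the replicate numbers pair ST with SI. A fit with the replicate block gave 2464 higher and 2945 lower, and 115 positive and 431 negative contrasts between shoot and rhizome.

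That contrast depended more on the arrays. It ranged from 72 to 216 positive and from 327 to 758 negative calls when 1 array was left out, with the highest counts without SI replicate 1 and the lowest without RI replicate 3 (positive) and without ST replicate 1 (negative). Without ST replicate 2, 86 were positive. Without SI replicate 1 and RI replicate 2 together, an alternative chosen after seeing the data, as was median centring for this contrast, it gave 486 and 1152, and with the tip labels exchanged 3 and 19. The exchange turned the sign of the difference from SI, relative to the labels as they stand, for the probe sets of Os04g54230 (−2.01 and −2.97), lipid-transfer proteins 1 (−2.02) and 3 (Os12g02340, −2.79) and the wound induced protein (−2.99); the cause was not tested. Without SI replicate 3, 5 instead of 3 starch probe sets were lower, and without ST replicate 3, 7 instead of 11 kinases. Signals near the cutoff limit what can be said of dim genes.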
